A study of Mus musculus with 45 samples.

Results

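The genes described here encode the subunits of the mitochondrial respiratory chain and of ATP synthase that are made from nuclear DNA. The rule that chose them reads names alone and no measured value. A symbol of the deposited CPM table had to start with Ndufa, Ndufb, Ndufc, Ndufs or Ndufv followed by a digit, to be Sdha, Sdhb, Sdhc or Sdhd, or to start with Uqcr, with Cox4 to Cox8, or with Atp5, and assembly factors starting with Ndufaf were left out. This gave 76 of the 11900 genes of that table, and the deposited count table held 29307 genes. By name, 36 members belonged to complex I, 4 to complex II, 8 to complex III, 13 to complex IV and 15 to complex V. All 76 passed the filter on low counts that left 12905 genes for testing. The count table held 8 further genes with such names that the CPM table lacked and that were therefore not members: Atp5l, Atp5mpl, Cox4i2, Cox6b2, Cox7b2, Cox8b, Cox8c and Ndufa4l2.

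RNA was sequenced from bone marrow-derived macrophages of C57BL/6N mice aged 6 to 10 weeks that carried 1 of 3 alleles of Famin (gene symbol Lacc1), a purine enzyme. The alleles were p.254I, the variant not linked to disease risk, p.254V, the risk variant, and p.284R, the variant found in a monogenic inflammatory disease. Marrow was cultured for 6 days with M-CSF, a macrophage growth factor, and the cells were left unstimulated (M0) or polarized with IFN-γ and LPS (M1) or with IL-4 (M2). Each of the 9 combinations had 5 libraries, so 45 in all. In what follows the genotypes are written p254I, p254V and p284R, the reference in each genotype comparison is the allele named second, and no wild-type or Famin-deleted macrophages were among the libraries. The allele is carried by every cell of the animal, so the libraries cannot separate its action in the macrophage from its action in the marrow the macrophages grew from. The 3 libraries that share a genotype and a replicate number were read as cultures of 1 mouse, which gives 15 mice. The labels state 5 mice per genotype but do not spell out this pairing.

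Complexes I to IV pass electrons from NADH and succinate to oxygen and pump protons out of the mitochondrial matrix, except complex II, which pumps none. Complex V, the ATP synthase, lets the protons back in and makes ATP. Most subunits are nuclear genes that must be imported and assembled with a small set made from mitochondrial DNA, and macrophages are known for shifting between glycolysis and oxidative phosphorylation when they are polarized, with IL-4 classically tied to the latter. The subunits made from mitochondrial DNA were not analysed here.

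Total counts ranged from 17239009 to 43740283 per library with a median of 27553642, so 1 CPM of a raw total, before the scaling described next, stood for 17.2 to 43.7 reads. The lowest count of any member in any library was 6, and 69 members had at least 100 reads in every library. Levels are CPM, read counts scaled to a common library size, with library sizes adjusted by TMM, a method that sets most genes equal between libraries. The 8 macrophage markers summed to 20034 to 33454 CPM in M0, 11289 to 15151 CPM in M1 and 9633 to 13875 CPM in M2. The 6 M1 markers summed to 1295 to 5861 CPM in M1 and to at most 43.7 CPM in M0 and 37.7 CPM in M2, and the 6 M2 markers summed to 4947 to 14863 CPM in M2 and to at most 914 CPM in M0 and 377 CPM in M1. Among the 6 M1 markers, Il6 and Il12b stayed at or below 0.298 and 0.201 CPM in all M1 libraries. Most of the M1 sum was Cxcl9, with a median of 3261 CPM of 3671 CPM, and Nos2 ran from 3.01 to 149 CPM in M1. Of other cell types, the 4 T cell, 4 erythroid and 4 mast cell markers summed to at most 0.270, 0.0426 and 0.137 CPM in any library. Neutrophil markers (6) summed to 19.4 to 204 CPM in M0, 29.3 to 97.0 CPM in M1 and 13.0 to 58.8 CPM in M2, fibroblast markers (4) to 16.9 to 88.4, 6.32 to 20.1 and 9.24 to 31.9 CPM, B cell markers (4) to 6.90 to 11.8, 3.89 to 9.40 and 2.28 to 4.51 CPM, and dendritic cell markers (4) to 0.459 to 1.62, 5.26 to 11.5 and 3.86 to 12.9 CPM. These moved with polarization, and their part in the results was not tested. In bulk RNA, fewer cells of a type and less RNA per cell cannot be told apart.

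Libraries of a single mouse stood apart at marker genes in a pair of cases, both p254I. The M1 library of mouse 5 held 40.8 CPM of Arg1 and 49.1 CPM of Retnla, both M2 markers, against at most 0.912 and 0.249 CPM in the other M1 libraries. Mouse 4 held 1098 CPM of Fcgr1 in M0 and 153 CPM in M2, against at most 463 and 55.1 CPM in the other libraries of those states. Without mouse 4, and likewise without mouse 5, 72 members were called higher and 2 lower in M1 than M0, and 74 higher and 2 lower in M2 than M0, the same counts as with all mice. In M1 against M2, leaving out either mouse gave 39 members higher and 17 lower, against 43 and 17 with all mice. Lacc1 itself had a median of 169 CPM in M0, 501 CPM in M1 and 167 CPM in M2 of p254I, 171, 542 and 168 CPM in p254V, and 119, 396 and 122 CPM in p284R. The p284R libraries spread more widely, at 91.2 to 169 CPM in M0, 218 to 584 CPM in M1 and 56.8 to 199 CPM in M2, against 159 to 257, 486 to 523 and 159 to 169 CPM in p254I, so the lower median was not shared by every p284R mouse. The alleles differ in the protein, so the mRNA level does not check the labels.

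Subunit mRNAs were higher in both polarized states than in M0. Summed over all 76 members, they made up 5568 to 6078 CPM in M0 with a median of 5875 CPM (15 libraries), 8932 to 10585 CPM in M1 with a median of 9702 CPM, and 8240 to 10128 CPM in M2 with a median of 9363 CPM. No M1 or M2 library reached down to the M0 range, while the M1 and M2 ranges overlapped. Within a mouse, the M1 sum was 1.48 to 1.79 times the M0 sum (median 1.66) and the M2 sum 1.41 to 1.73 times (median 1.60), in 15 of 15 mice each.

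Each complex showed the same order against M0. Complex I summed to medians of 1539, 2223 and 2166 CPM in M0, M1 and M2, complex II to 690, 1160 and 1067 CPM, and complex III to 558, 895 and 891 CPM. Complex IV summed to 1021, 1761 and 1509 CPM and complex V to 2065, 3674 and 3610 CPM. For every complex the 15 M0 libraries lay below the 15 M1 and the 15 M2 libraries. Between M1 and M2 the ranges of all 5 complexes overlapped, and complex IV was the one whose M1 sum exceeded the M2 sum in 15 of 15 mice, by 1.02 to 1.31 times with a median of 1.19. The 15 of 15 depends on the member Cox7a2l. In p284R mouse 2 the complex IV sums were 1595 CPM in M1 and 1561 CPM in M2. Cox7a2l gave 98.3 and 52.1 CPM of these, and without it the M2 sum of that mouse is the higher. Complex I M1 sums exceeded M2 sums in 12 mice, complex II in 13, complex III in 10 and complex V in 7.

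**Figure D1:**
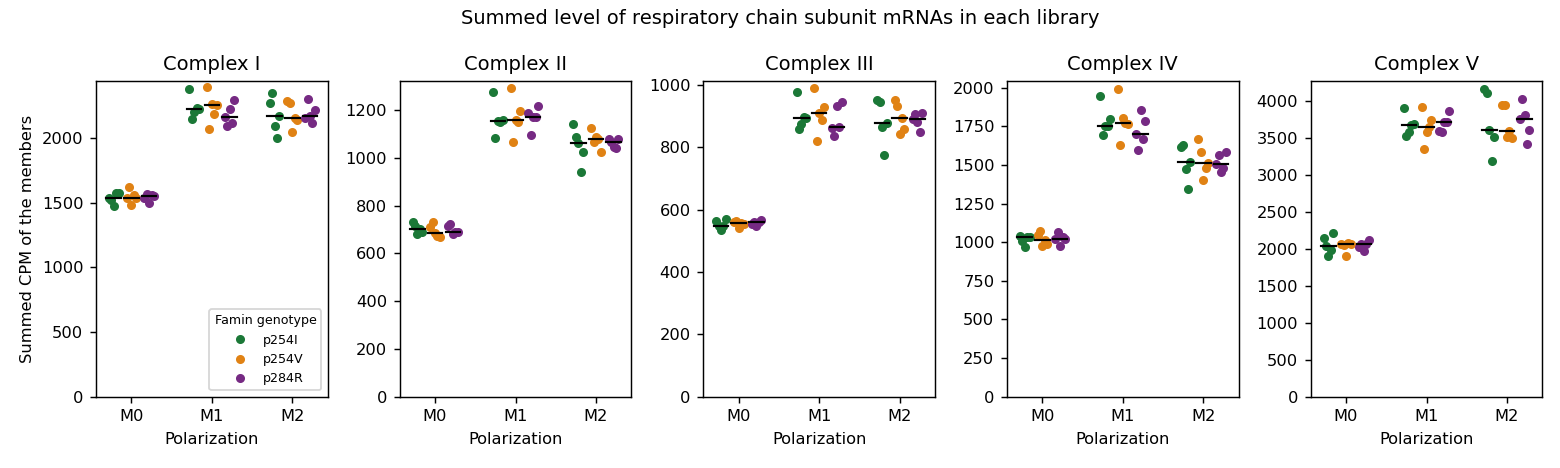
Summed level of the member mRNAs of complexes I to V in each of the 45 libraries, in CPM of TMM-scaled library sizes, by polarization and Famin genotype. Points are libraries and bars are medians of 5. M0 sums lie below all M1 and M2 sums in each complex, for instance at most 2207 CPM in complex V M0 against at least 3347 CPM in M1 and 3190 CPM in M2.

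Per kilobase of transcript, the levels of single subunits spread widely. In M0, Cox4i1 (complex IV) was at 358 CPM per kb, Cox6b1 (complex IV) at 320 and Atp5b (complex V, the catalytic beta subunit) at 312, the 3 highest of the 76. The lowest were Atp5g1 at 0.506, Atp5g2 at 0.896 and Cox6a2 at 1.42 CPM per kb. The median over members was 41.9 CPM per kb for complex I, 102 for complex II, 72.3 for complex III, 84.5 for complex IV and 86.5 for complex V in M0. In M1 these medians were 70.0, 178, 113, 133 and 148, and in M2 65.9, 156, 112, 129 and 128 CPM per kb. In 19 members fewer than 90% of the 50-base windows of the gene's exons were unique to it, lowest in Atp5o (58.4%), Atp5g2 (61.7%) and Ndufb6 (68.4%), so their levels may be split with other genes. Among the members described below these also include Ndufa13 (71.5%), Ndufs3 (82.1%), Atp5g1 (88.9%) and Ndufa12. Over the members with at least 90% unique windows, the medians of complexes I to V in M0 were 45.8, 102, 84.2, 133 and 140 CPM per kb. In M1 they were 80.0, 178, 145, 253 and 215, and in M2 69.5, 156, 145, 213 and 217. Complex II, highest over all members in each state, then lay below complexes IV and V. The counting used is not given in the sources used here.

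In M1 against M0 (edgeR's fit of all 45 libraries), 72 of 76 members rose and 2 fell, where 37.0% of all tested genes were called higher and 40.3% lower. The median log2 fold change of the members was 0.61, a fold of 1.53, with the middle 50% of members between 0.47 and 0.82, against -0.03 over all genes tested. Calls were made at a Benjamini-Hochberg adjusted p under 0.05 in edgeR's quasi-likelihood test over all genes. By complex, 34 of 36 members of complex I, 4 of 4 of complex II, 8 of 8 of complex III, 12 of 13 of complex IV and 14 of 15 of complex V rose, with medians of 0.55, 0.82, 0.65, 0.83 and 0.66 log2. All 15 M1 libraries lay above all 15 M0 libraries for 60 members, against 15.2% of all genes, and all lay below for 0 members, against 13.5% of all genes. In 65 members the M1 library was higher than the M0 library of the same mouse in 15 of 15 mice. For this count within mice the share of all genes was not computed. The members that fell were Cox7a1 and Atp5s. Ndufb11 (log2 -0.05 ± 0.038 SE) and Ndufa7 (0.06 ± 0.040), accessory subunits of complex I named after their values were seen, did not pass. Without TMM the calls over all genes shifted to 3812 higher and 6276 lower from 4778 and 5204 and the median of all genes to -0.13, while 71 members rose and 3 fell, Ndufb11 becoming the third of those, and Atp5g2 no longer passed.

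In M2 against M0, 74 of 76 members rose and 2 fell, Cox7a2l and Atp5s, where 36.8% of all tested genes were called higher and 39.6% lower. The median log2 fold change was 0.58, a fold of 1.49, against -0.03 over all genes tested. All 36 members of complex I, 4 of complex II and 8 of complex III rose, with 12 of 13 of complex IV and 14 of 15 of complex V, and the medians were 0.49, 0.61, 0.65, 0.62 and 0.62 log2. All 15 M2 libraries lay above all 15 M0 libraries for 56 members, against 13.6% of all genes, and all lay below for 0 members, against 9.78%. In 65 members the M2 library was higher in 15 of 15 mice, a count whose share over all genes was not computed. Without TMM 73 members rose and 2 fell, Cox7a1 no longer passing. Both comparisons share the M0 libraries, so they are not independent of each other.

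**Figure D2:**
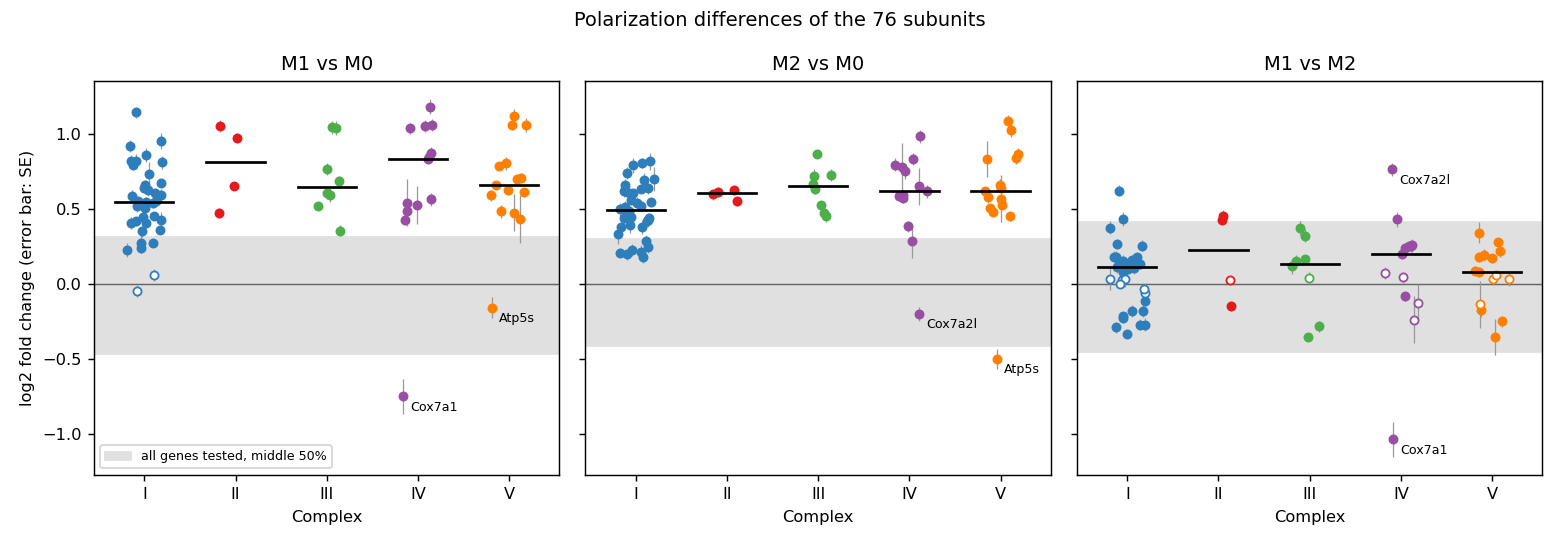
Log2 fold change of each of the 76 subunits by complex in M1 vs M0, M2 vs M0 and M1 vs M2, with the standard error as bars, filled points for called members and open points for the rest. Black lines are complex medians and the grey band holds the middle 50% of all 12905 genes tested. Most members lie above the band in both comparisons with M0, with Cox7a1, Cox7a2l and Atp5s as labelled exceptions.

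The sequence before the start of 5 members is shown because they carry the patterns described further on. Cox5a rose most of all members in M1, Uqcr11 (named after its values were seen) was higher in M2 than in M1 in every library, Atp5g3 rose in both states by a similar size, and Cox7a1 and Cox7a2l went against the other members in 1 state each. The stretches are the 250 bases before the RefSeq start, 5′ to 3′ on the gene's strand, build GRCm38.p6. Capitals mark a match on either strand to the letters CCGGAAG (ETS factors such as GABP), found in Uqcr11, or TCAAGGTCA (estrogen-related receptors), found in Atp5g3. The Cox5a, Cox7a1 and Cox7a2l stretches hold neither of these, nor GCATGCGC (NRF1), nor AAGATGG (YY1), and the RefSeq start of Cox7a2l lies inside the longer extent GENCODE gives the gene.
Uqcr11, chr10:80406822-80407071, minus strand: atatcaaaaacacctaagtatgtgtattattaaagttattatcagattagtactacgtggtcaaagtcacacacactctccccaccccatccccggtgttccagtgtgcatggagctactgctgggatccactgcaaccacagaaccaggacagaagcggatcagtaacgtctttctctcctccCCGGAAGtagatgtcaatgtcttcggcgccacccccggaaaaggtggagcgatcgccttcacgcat
Cox5a, chr9:57520982-57521231, plus strand: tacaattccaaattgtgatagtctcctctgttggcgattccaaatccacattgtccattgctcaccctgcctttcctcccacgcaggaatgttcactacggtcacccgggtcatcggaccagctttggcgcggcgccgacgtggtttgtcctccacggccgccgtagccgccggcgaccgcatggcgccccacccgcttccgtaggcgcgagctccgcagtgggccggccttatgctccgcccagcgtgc
Atp5g3, chr2:73911327-73911576, minus strand: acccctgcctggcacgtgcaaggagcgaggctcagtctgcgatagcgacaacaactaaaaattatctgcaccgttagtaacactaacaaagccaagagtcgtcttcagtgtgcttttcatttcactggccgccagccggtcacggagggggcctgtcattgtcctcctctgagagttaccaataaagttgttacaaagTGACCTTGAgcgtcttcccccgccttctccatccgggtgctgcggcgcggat
Cox7a1, chr7:30183921-30184170, plus strand: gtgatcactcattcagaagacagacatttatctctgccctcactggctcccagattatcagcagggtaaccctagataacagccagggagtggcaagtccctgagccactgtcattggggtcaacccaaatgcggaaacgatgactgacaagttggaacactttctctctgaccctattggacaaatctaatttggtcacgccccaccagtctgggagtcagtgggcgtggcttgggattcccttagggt
Cox7a2l, chr17:83514334-83514583, minus strand: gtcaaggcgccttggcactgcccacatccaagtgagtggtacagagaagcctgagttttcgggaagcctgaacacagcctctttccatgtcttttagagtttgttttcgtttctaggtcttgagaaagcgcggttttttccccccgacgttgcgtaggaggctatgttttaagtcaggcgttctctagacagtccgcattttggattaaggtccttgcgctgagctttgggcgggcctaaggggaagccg

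RefSeq promoter windows of 300 bases (250 before and 50 after the start) matched 64 of the 76 members and gave 69 windows. GCATGCGC stood in 13.0% of the member windows (9 of 69) and in 2.71% of all 32851 windows, CCGGAAG in 21.7% (15) and 8.86%, TCAAGGTCA in 2.90% (2) and 0.423%, and AAGATGG in 15.9% (11) and 6.34%. Both strands were searched, and a window with several matches counts once. Of the 64 members, 31 held at least 1 of these letters and 33 held none. Member windows had a median GC content of 58.3%, against 52.7% over all windows. GCATGCGC stood in the windows of Uqcrc1 and Uqcr11 as well as of Sdhb, Ndufa6, Ndufa8, Ndufa11, Cox6a1, Atp5g2 and Atp5k, of which Sdhb was higher in M1 than M2 and Uqcrc1 lower. A match describes the letters in the window and no binding was measured.

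Complex I takes electrons from NADH. Of its 7 core nuclear subunits, Ndufs3 rose most in M1. Its level was 19.6 to 25 CPM in M0 (median 21.6), 45.7 to 52.8 CPM in M1 (median 47.6) and 27.9 to 35.5 CPM in M2 (median 31.7). The 3 states did not overlap, with M1 highest and M2 between. Ndufs3 differed by 1.15 ± 0.036 (SE) log2 in M1 and by 0.52 ± 0.036 in M2 against M0. Its gene lies at chr2:90894634-90904827, minus strand (mm10, GENCODE). Ndufs7, which carries the last iron-sulfur cluster before ubiquinone, was at 33.7 to 42.8 CPM in M0, 65.2 to 81.9 CPM in M1 and 55.8 to 71.3 CPM in M2. It rose by 0.92 ± 0.040 log2 in M1 and 0.66 ± 0.040 in M2, with both states above M0 and overlapping each other.

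Ndufs1, the largest subunit of complex I and part of its NADH-oxidizing arm, had the reverse order. It was at 78.0 to 92.9 CPM in M0 (median 87.0), 98.8 to 112 CPM in M1 (median 107) and 116 to 143 CPM in M2 (median 133). All M2 libraries lay above all M1 libraries, and these above all M0 libraries. Ndufs1 rose by 0.27 ± 0.028 log2 in M1 and by 0.61 ± 0.028 in M2. Ndufv1, which binds NADH, rose by 0.46 ± 0.027 log2 in M1 and by 0.46 ± 0.027 in M2, from a median of 58.5 CPM to 81.0 CPM in M1 and 79.9 CPM in M2. Its partner Ndufv2 rose by 0.63 ± 0.042 and 0.74 ± 0.042 log2, and Ndufs8 by 0.74 ± 0.078 and 0.70 ± 0.078 log2.

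Among the accessory subunits of complex I, Ndufa12 rose by 0.96 ± 0.056 log2 in M1 and 0.82 ± 0.056 in M2, from 9.10 to 13.4 CPM in M0 to 19.4 to 26.7 CPM in M1 and 17.3 to 25.5 CPM in M2. Ndufa13, also studied as a mediator of interferon-induced cell death, rose by 0.52 ± 0.035 in M1 and 0.81 ± 0.035 in M2, from a median of 66.7 CPM to 96.9 and 117 CPM. Ndufa4, named for complex I but now counted with complex IV, rose less in M1 (0.24 ± 0.036 log2, 81.6 to 94.3 CPM at the medians, ranges overlapping) than in M2 (0.52 ± 0.036, median 116 CPM, ranges apart). Over the 36 members of complex I the log2 fold change ran from -0.05 to 1.15 in M1 and from 0.18 to 0.82 in M2.

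Complex II, succinate dehydrogenase, feeds electrons from the TCA cycle and consists of 4 nuclear subunits with none from mitochondrial DNA. Sdha, the subunit that oxidizes succinate, was at 263 to 307 CPM in M0 (median 280), 350 to 423 CPM in M1 (median 388) and 363 to 483 CPM in M2 (median 427). Both polarized states lay above M0, with 0.47 ± 0.034 log2 in M1 and 0.62 ± 0.034 in M2. Sdhb, the iron-sulfur subunit, was at 121 to 146 CPM in M0 (median 128), 219 to 274 CPM in M1 (median 257) and 175 to 202 CPM in M2 (median 188). Here the 3 states were separate, with 0.98 ± 0.034 log2 in M1 and 0.55 ± 0.033 in M2. Sdhd (chr9:50596357-50603812, minus strand), a membrane anchor, was likewise at 124 to 150 CPM, 264 to 330 CPM and 167 to 229 CPM, with 1.06 ± 0.039 and 0.60 ± 0.038 log2. The other anchor, Sdhc, rose by 0.65 ± 0.027 and 0.63 ± 0.027 log2, from a median of 152 CPM to 242 and 233 CPM. So within this small complex Sdhb and Sdhd stood higher in M1 than M2, Sdha stood lower (-0.14 ± 0.034 log2) and Sdhc did not pass (0.02 ± 0.026).

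Complex III passes electrons from ubiquinol to cytochrome c. Uqcr10 and Uqcrq, small subunits, rose most in M1, by 1.05 ± 0.044 and 1.04 ± 0.049 log2. Uqcr10 was at 47.2 to 53.8 CPM in M0, 89.7 to 121 CPM in M1 and 69.1 to 97.4 CPM in M2, and Uqcrq at 33.8 to 43.7, 61.4 to 95.3 and 55.3 to 69.0 CPM. For both, M1 and M2 lay above M0 and overlapped each other. Uqcrc1 (chr9:108936633-108949623, plus strand), a core subunit, had the largest rise of the complex in M2. It was at 144 to 157 CPM in M0 (median 150), 204 to 233 CPM in M1 (median 214) and 243 to 290 CPM in M2 (median 276), with no overlap between the states. Its log2 fold change was 0.52 ± 0.026 in M1 and 0.87 ± 0.026 in M2. Uqcrfs1, the Rieske iron-sulfur protein, rose by 0.77 ± 0.038 and 0.73 ± 0.038 log2.

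Complex IV, cytochrome c oxidase, reduces oxygen. Cox5a (chr9:57521274-57532426, plus strand), which binds the core of the enzyme from the matrix side, had the largest rise of all 76 members in M1. It was at 85.1 to 114 CPM in M0 (median 99.4), 194 to 268 CPM in M1 (median 227) and 137 to 193 CPM in M2 (median 164), all 3 states apart. Its log2 fold change was 1.19 ± 0.052 in M1, a fold of 2.27, and 0.75 ± 0.051 in M2. Cox7b, at 54.6 to 74.9 CPM in M0, 120 to 149 CPM in M1 and 106 to 145 CPM in M2, rose by 1.06 ± 0.042 and 0.99 ± 0.042 log2. Cox8a rose by 1.04 ± 0.038 and 0.84 ± 0.038 log2, Cox6a1 by 0.83 ± 0.032 and 0.59 ± 0.032, Cox6b1 by 0.85 ± 0.033 and 0.60 ± 0.033, and Cox4i1, the most abundant subunit per length in M0, by 0.43 ± 0.035 and 0.39 ± 0.035.

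Members of the COX7A family went different ways. Cox7a2, the form found in most tissues, was at 64.3 to 79.5 CPM in M0, 116 to 147 CPM in M1 and 94.2 to 132 CPM in M2 and rose by 0.87 ± 0.043 and 0.62 ± 0.043 log2. Cox7a2l (chr17:83501918-83517330, minus strand) is named as a factor joining complexes III and IV into supercomplexes, a role not measured in these mice. Cox7a2l was at 63.3 to 77.1 CPM in M0 (median 71.8), 92.2 to 127 CPM in M1 (median 106) and 50.5 to 69.5 CPM in M2 (median 63.1). It was above every M0 and M2 library in M1, while M2 and M0 overlapped. Cox7a2l rose by 0.57 ± 0.044 log2 in M1 and fell in M2 (-0.20 ± 0.044), lower in 14 of 15 mice, and 86.2% of its exon windows were unique. Cox7a1 (chr7:30184144-30186078, plus strand), a form typical of heart and skeletal muscle, was low throughout, at 1.04 to 1.83 CPM in M0 (median 1.66), 0.416 to 1.32 CPM in M1 (median 0.962) and 1.37 to 2.40 CPM in M2 (median 1.84). It fell in M1 by 0.75 on the log2 scale (SE 0.118), in 15 of 15 mice with overlapping ranges, and rose by 0.29 ± 0.111 in M2, the call that was lost without TMM. Cox6a2, another muscle form, was at 0.611 to 1.60 CPM in M0, 0.787 to 2.58 CPM in M1 and 1.27 to 2.72 CPM in M2 and rose by 0.54 ± 0.159 and 0.78 ± 0.158 log2. At these levels counts were small, down to 10 reads for Cox7a1 in M1 and 17 reads for Cox6a2 in M0.

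Complex V, ATP synthase, had the highest summed CPM of the 5 complexes in all 3 states. That sum is not per transcript length. Summed per kilobase, complex I was highest in M0 at 1913 CPM per kb against 1660 for complex V, and complex V was highest in M1 at 2946 against 2736 and in M2 at 2859 against 2634. Atp5b (chr10:128083273-128090391, plus strand) was at 529 to 685 CPM in M0 (median 599), 1116 to 1420 CPM in M1 (median 1316) and 1096 to 1481 CPM in M2 (median 1222). M1 and M2 overlapped and both lay above M0, with 1.12 ± 0.045 log2 in M1 and 1.09 ± 0.045 in M2, the largest rise of any member in M2. Atp5o, which links the catalytic head to its stalk, rose by 1.07 ± 0.039 and 0.87 ± 0.039 log2 from 50.8 to 66.2 CPM in M0 to 104 to 141 CPM in M1 and 97.4 to 117 CPM in M2. The 3 Atp5g genes encode the same mature ring subunit c. Of the reads counted for them, Atp5g3 held nearly all, at 128 to 162 CPM in M0, 279 to 340 CPM in M1 and 239 to 345 CPM in M2. It rose by 1.06 ± 0.046 and 1.03 ± 0.046 log2. Atp5g1 (medians 1.35, 1.80 and 2.22 CPM) rose by 0.48 ± 0.123 and 0.83 ± 0.121, and Atp5g2 (medians 0.525, 0.763 and 0.849 CPM) by 0.44 ± 0.160 and 0.57 ± 0.159, both with overlapping ranges. Unique windows made up 100% of Atp5g3, 88.9% of Atp5g1 and 61.7% of Atp5g2. The low levels of Atp5g1 and Atp5g2 may therefore leave out reads shared with other genes.

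Atp5s (chr12:69724950-69744660, plus strand), a protein with leucine-rich repeats that is named as a coupling factor of the synthase, was the one member lower in both states. It was at 3.78 to 5.23 CPM in M0 (median 4.71), 3.04 to 5.04 CPM in M1 (median 4.12) and 2.51 to 3.93 CPM in M2 (median 3.29). In M2 it fell by 0.50 on the log2 scale (SE 0.069), in 15 of 15 mice with ranges that overlapped. In M1 the difference was small, -0.16 ± 0.068 log2, lower in 10 of 15 mice, with an adjusted p of 0.034 in edgeR's quasi-likelihood test (Benjamini-Hochberg adjusted). Leaving out p254I mouse 1, 2 or 3, p254V mouse 2, 3 or 5, or p284R mouse 1 or 5 ended that call, as did testing without the filter on low counts (-0.15 log2, adjusted p 0.084 in the same edgeR test). An example is -0.11 log2 with an adjusted p of 0.153 by the same test without p284R mouse 5.

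**Figure D3:**
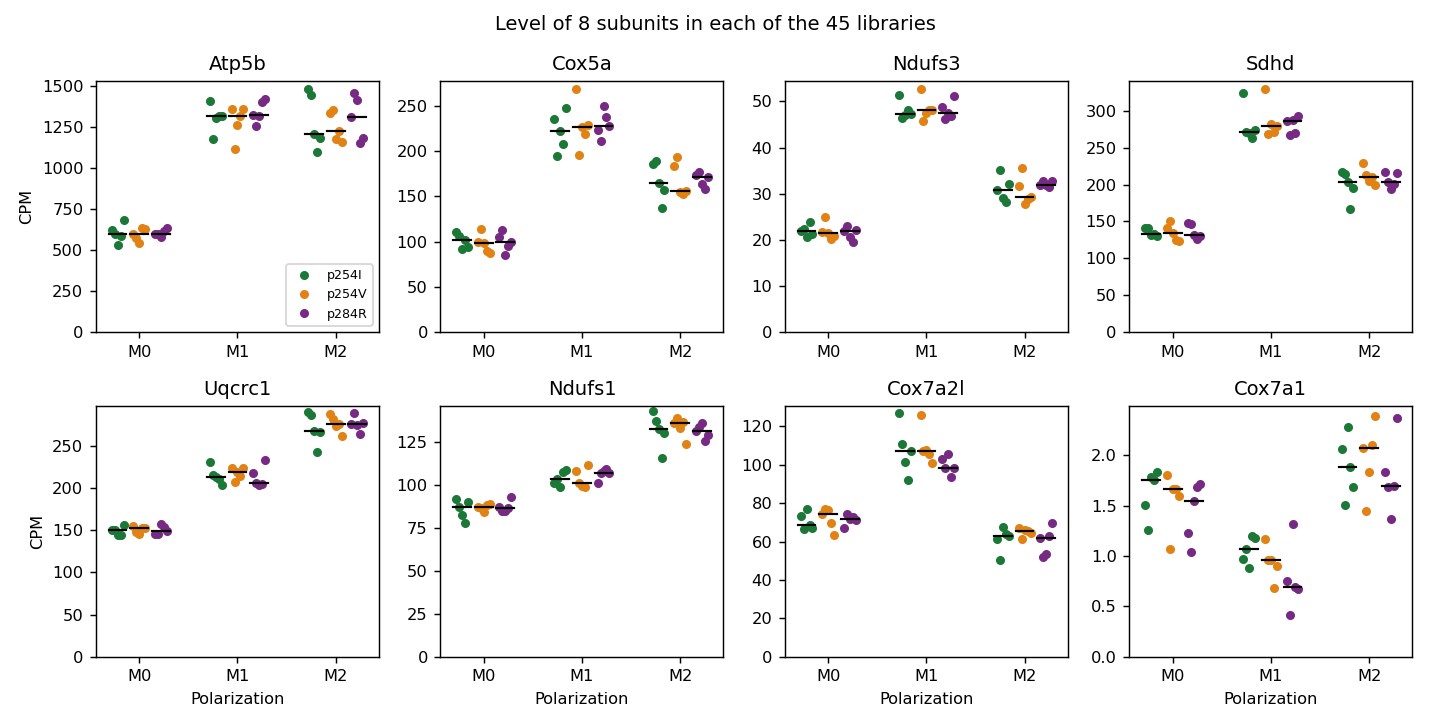
CPM of 8 subunits in each of the 45 libraries by polarization, coloured by Famin genotype, with bars at the median of 5. Cox5a, Ndufs3 and Sdhd are ordered M1, M2, M0 from high to low, Uqcrc1 and Ndufs1 are ordered M2, M1, M0, Atp5b is similar in M1 and M2, and Cox7a2l and Cox7a1 depart from the M0 order.

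Of the 5 complexes, complex I had the lowest median log2 fold change in both states. The 50 members with transcripts under 1000 bases had a median log2 fold change of 0.61 in M1 and 0.57 in M2, and the 26 longer ones 0.59 and 0.61. Spearman's rho with transcript length across the 76 genes, which share libraries and are not independent replicates, was 0.01 in M1 and 0.19 in M2. Members lay on 19 chromosomes, 3 of them on X. The gene overlapped another gene on the same strand in 12 members and on the opposite strand in 27, and since the use of strand in counting is not given in the sources used here, reads of such partners may have been counted with them.

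**Figure D4:**
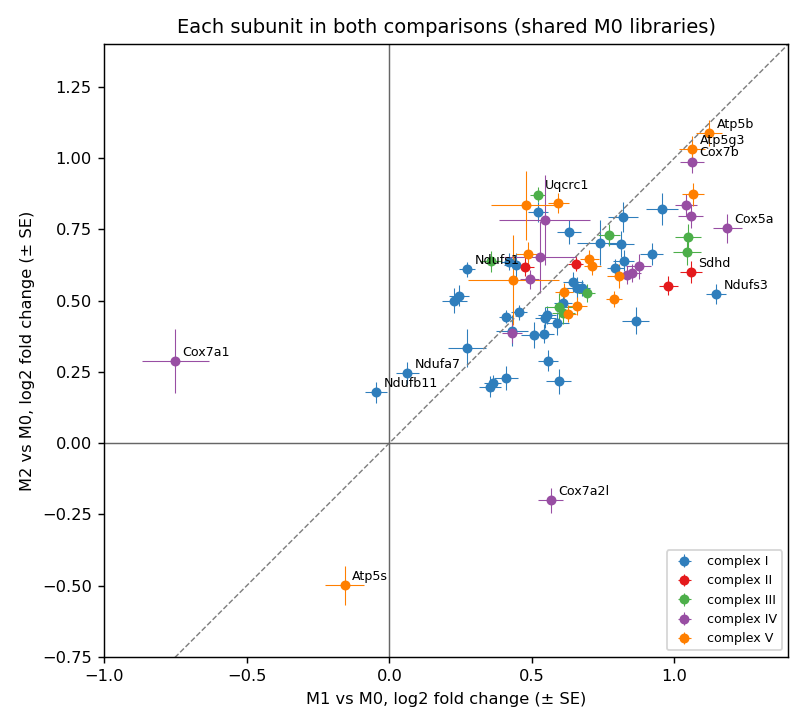
Log2 fold change of each subunit in M1 vs M0 (x axis) and in M2 vs M0 (y axis) with standard errors, coloured by complex, and a dashed line of equal change. Both axes share the same M0 libraries. Most points lie in the upper right, with Ndufs3, Cox5a and Sdhd to the right of the line, Uqcrc1 and Ndufs1 above it, Cox7a1 at -0.75 on the x axis, Cox7a2l at -0.20 and Atp5s at -0.50 on the y axis.

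In the direct comparison of M1 with M2, members were called in both directions. Taking both directions together, the share of members called was close to that of all genes. Of the members, 43 were higher in M1, 17 lower and 16 not called, where 39.0% of all genes were called higher and 40.1% lower. The median was 0.11 log2, against -0.01 over all genes. Per complex, the members higher and lower in M1 were 21 and 9 of 36 in complex I, 2 and 1 of 4 in complex II, 5 and 2 of 8 in complex III, 7 and 2 of 13 in complex IV, and 8 and 3 of 15 in complex V. Without TMM 34 members were higher and 18 lower. This comparison uses the M1 and M2 libraries of those above, so its values restate them on another axis.

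All 15 M1 libraries lay above all 15 M2 libraries for 6 members, against 17.6% of all genes, and below for 4, against 18.1% of all genes. These shares of 76 are under the background. The members above were Ndufs3, Sdhb, Sdhd, Cox5a, Cox7a2l and Ndufa5, and those below Ndufs1, Uqcrc1, Cox7a1 and Uqcr11. Ndufa5 and Uqcr11 are named because of these values. Ndufa5, an accessory subunit of complex I, was at 33.3 to 42.8 CPM in M1 and 23.6 to 31.9 CPM in M2, and Uqcr11, the smallest subunit of complex III, at 33.0 to 41.6 and 41.9 to 51.5 CPM. The differences M1 against M2 were 0.77 ± 0.044 log2 for Cox7a2l, 0.62 ± 0.035 for Ndufs3, 0.46 ± 0.038 for Sdhd, 0.43 ± 0.033 for Sdhb, 0.43 ± 0.051 for Cox5a and 0.43 ± 0.047 for Ndufa5. They were -1.04 ± 0.117 for Cox7a1, -0.35 ± 0.026 for Uqcrc1, -0.34 ± 0.028 for Ndufs1 and -0.28 ± 0.037 for Uqcr11. In every mouse 11 members were higher in M1 than M2 and 6 lower. The share of all genes was not computed for that count, so it is not read against a background.

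The rise against M0 was found in each genotype. In p254I, p254V and p284R the median log2 fold change of the members was 0.61 for each in M1, and 0.55, 0.59 and 0.58 in M2. Against M0, in M1 69 members rose and 1 fell in each genotype, where 29.1%, 30.3% and 31.0% of all genes were called higher and 30.9%, 32.1% and 32.4% lower. The M2 counts were 71, 72 and 71 members that rose and 2, 1 and 2 that fell, where 30.0%, 28.2% and 29.7% of all genes were called higher and 30.6%, 29.2% and 30.2% lower. Over single mice the median over members ran from 0.49 to 0.75 log2 in M1 and from 0.40 to 0.64 in M2, positive in 15 of 15.

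The genotype comparisons asked whether Famin alleles move these subunits. No member was called in any of 16 comparisons, which include 4 tests of whether a genotype difference changed with polarization, in edgeR, in DESeq2 or in limma-voom. Averaged over polarizations, 0.0155% of all genes were called between p284R and p254I, 0.0155% between p254V and p254I and 0.0% between p284R and p254V. At an unadjusted p under 0.05 there were 3, 2 and 2 members in edgeR, and the same numbers in DESeq2 and in limma-voom. The median differences over members were -0.00, 0.00 and -0.01 log2 with a median standard error of 0.038 in each. For 71 of the 76 members the 95% interval of each of these differences lay within 0.25 log2 of zero, and this was also so when the counts of a mouse were summed. The main fit treated the cultures read as 1 mouse as independent. With the counts of a mouse summed, the median standard error was 0.042 in each comparison. These comparisons share libraries with one another, since each genotype enters a pair of them.

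Within polarizations, between p284R and p254I 0.0% of genes were called in M0, 0.263% in M1 and 0.00775% in M2, with 0 members in each, and 1, 3 and 0 members at an unadjusted p under 0.05. Between p254V and p254I 0.0% were called in M0, in M1 and in M2, with 1, 0 and 0 members at an unadjusted p under 0.05. Between p284R and p254V the shares were 0.0%, 0.0775% and 0.0%, with 0, 3 and 0 members. The 4 interactions, p284R or p254V against p254I in M1 or M2 against M0, called 0.0% of genes, with 0 members at an unadjusted p under 0.05 in edgeR. At that p, the interaction of p284R with M1 had 1 member in DESeq2 and 2 in limma-voom, and that of p254V with M1 had 0 and 1. Within M1 of p284R, 56 members had a negative difference against p254I and 55 against p254V, with medians of -0.04 and -0.04 log2, while the medians of all genes were -0.00 and 0.00. The members share libraries and are not independent replicates, and the same p284R libraries enter both comparisons. The median standard error of a member there was 0.066, and the summed level of all members in M1 was 9200 to 10108 CPM in p284R, 9300 to 10466 CPM in p254I and 8932 to 10585 CPM in p254V, which overlapped.

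The smallest p of the averaged comparisons was that of Ndufb11, an accessory subunit named here because of it, in p284R against p254V. It averaged 34.7, 36.9, 37.0, 37.0 and 37.1 CPM over the 5 p284R mice, 37.2, 38.1, 40.0, 41 and 41.5 CPM in p254V and 36.0, 37.3, 38.5, 38.7 and 40.8 CPM in p254I. The p284R and p254V mice did not overlap, by a narrow gap, and the difference was -0.11 ± 0.038 log2 with p of 0.0040 and an adjusted p of 0.948 in edgeR's quasi-likelihood test (Benjamini-Hochberg adjusted). Within M1, Ndufb11 differed by -0.15 ± 0.065 log2 between p284R and p254I, with an adjusted p of 0.642 in the same edgeR test. Against p254I, the members with the smallest p were Atp5g1, Ndufc1 and Ndufv3. Atp5g1 averaged 1.41, 1.52, 1.67, 1.73 and 1.77 CPM in the 5 p254I mice, 1.75, 1.93, 1.94, 2.07 and 2.30 CPM in p254V and 1.58, 1.88, 1.89, 1.92 and 2.20 CPM in p284R. The ranges of p254V and p254I overlapped narrowly. Its difference from p254I was 0.33 ± 0.121 log2 in p254V and 0.26 ± 0.122 in p284R, with an adjusted p of 1.00 in edgeR's quasi-likelihood test (Benjamini-Hochberg adjusted) for both. Ndufc1 in p284R averaged 20.4, 21.2, 21.2, 22.3 and 22.4 CPM over mice, against 22.2, 22.8, 22.9, 23.3 and 24.2 CPM in p254I, a difference of -0.10 ± 0.045 log2. Ndufv3 in p254V averaged 47.3, 49.3, 49.6, 50.3 and 52.9 CPM, against 43.8, 46.2, 48.5, 49.0 and 49.4 CPM in p254I, a difference of 0.07 ± 0.029 log2. Ndufc1 and Ndufv3 also failed the adjustment, with adjusted p of 1.00 in the same edgeR test. With the counts of a mouse summed, edgeR's quasi-likelihood test gave Ndufb11 a p of 0.020 in p284R against p254V. The smallest p was then 0.0040 for Ndufc1 in p284R against p254I, and no member was called.

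**Figure D5:**
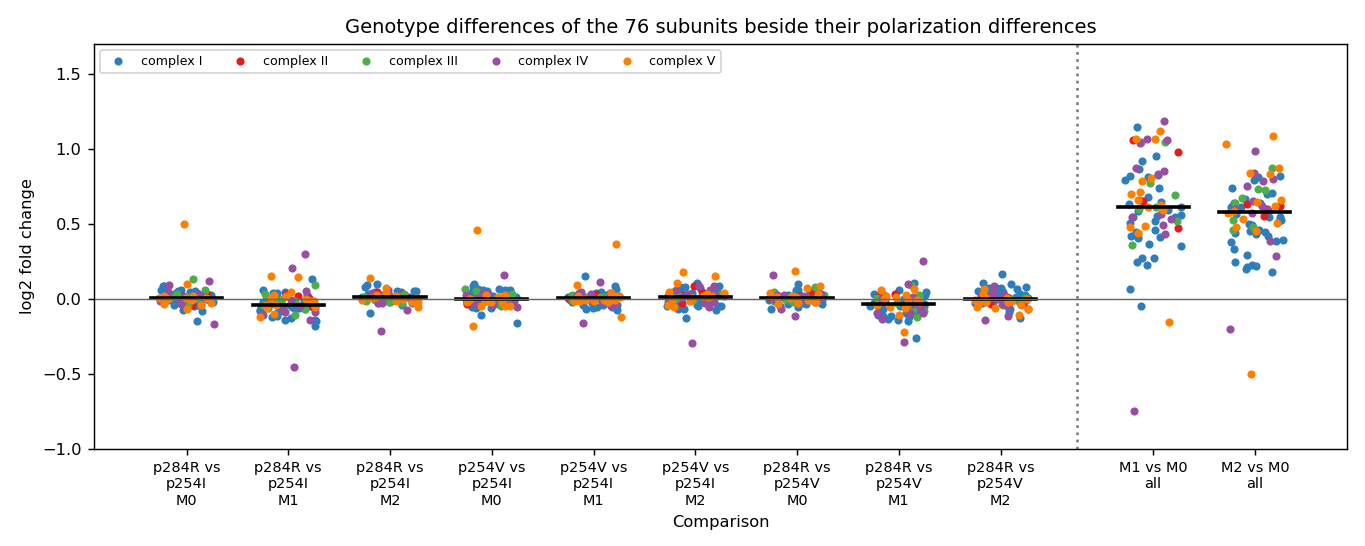
Log2 differences of the 76 subunits between genotypes within M0, M1 and M2 (9 comparisons, left of the dotted line) and their differences M1 vs M0 and M2 vs M0 over all genotypes (right), coloured by complex with the median as a black line. Genotype medians lie between -0.04 and 0.01 log2, and the polarization medians at 0.61 and 0.58.

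Genes that build, supply or regulate the chain were taken from lists of their own, whose counts stand against the same 37.0% higher and 40.3% lower of all genes in M1 and 36.8% and 39.6% in M2. Of 8 subunits with other names, 7 rose and 1 fell in M1 (median 0.67 log2) and 8 rose in M2 (0.46). AA467197, a paralogue of Ndufa4, rose by 3.57 ± 0.229 log2 in M1 and by 4.06 log2 in M2, from 0.406 to 2.15 CPM in M0 to 4.82 to 26.9 CPM in M1 and 9.68 to 26.0 CPM in M2. Both polarized states lay above M0. Cyc1, the cytochrome c1 of complex III, rose by 1.19 ± 0.048 and 1.03 log2, at 56.2 to 69.0 CPM in M0, 120 to 165 CPM in M1 and 108 to 150 CPM in M2.

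Assembly factors, which build the complexes and are not part of them, were called in both directions. Complex I factors (16) numbered 11 higher and 4 lower in M1 (median 0.33) and 13 higher and 0 lower in M2 (0.37). Complex IV factors (22) numbered 17 higher and 1 lower (0.38) and 15 higher and 1 lower (0.29). For complex II (3), III (6) and V (3), the counts higher and lower were 2 and 0, 5 and 0, and 2 and 1 in M1, and 3 and 0, 5 and 0, and 2 and 1 in M2. Coa5, a complex IV factor, rose from 164 to 218 CPM in M0 to 814 to 1024 CPM in M1, by 2.23 ± 0.050 log2, and to 224 to 303 CPM in M2, by 0.41 ± 0.048. Sco1, which delivers copper to complex IV, rose by 1.74 ± 0.040 log2 in M1 and 0.31 ± 0.040 in M2. Tmem126b, a complex I factor, fell in M1 (-0.29 ± 0.047) and rose in M2 (0.81 ± 0.046), and Atpaf1, a complex V factor, fell in both (-0.48 ± 0.077 and -0.22 ± 0.077).

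Of 20 genes for cytochrome c, ubiquinone synthesis and other routes of electron entry, 10 rose and 4 fell in M1 (median 0.11) and 15 rose and 3 fell in M2 (0.31). Cycs, cytochrome c, rose by 1.83 ± 0.092 and 0.90 ± 0.093 log2, at 0.992 to 2.03 CPM in M0, 4.29 to 7.18 CPM in M1 and 2.14 to 4.16 CPM in M2. Unique windows were not computed for Cycs, so its low level may leave out reads shared with other genes. Gpd2, the mitochondrial glycerol phosphate dehydrogenase, rose by 1.32 ± 0.073 in M1 and did not pass in M2 (-0.09 ± 0.073). Coq2, an enzyme of ubiquinone synthesis, rose in M1 (1.30 ± 0.069) and fell in M2 (-0.22 ± 0.070), while Coq8a fell in both (-1.21 ± 0.115 and -0.95 ± 0.113). Of 13 TCA cycle genes, 9 rose and 1 fell in M1 (0.49) and 12 rose and 1 fell in M2 (0.49). Suclg2, a subunit of succinyl-CoA ligase, fell by 0.31 on the log2 scale in M1 and by 1.25 in M2.

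Of 13 tested regulators of respiratory genes, 5 rose and 5 fell in M1 (median 0.03) and 9 rose and 0 fell in M2 (0.25), and the M1 counts are near the shares over all genes. Ppargc1b, a coactivator of estrogen-related receptors and NRF1, was at 1.56 to 3.07 CPM in M0, 17.4 to 23.8 CPM in M1 and 11.3 to 22.4 CPM in M2, up by 3.20 ± 0.090 and 2.91 log2. Both polarized ranges lay above M0. Myc fell in M1 (-1.86 ± 0.152) and rose in M2 (1.93 log2), and Hif1a rose in M1 (1.59 ± 0.069) and, by less, in M2 (0.16 ± 0.068). Of 77 mitochondrial ribosomal protein genes, 65 rose and 3 fell in M1 (0.35) and 69 rose and 1 fell in M2 (0.37), and of 77 cytosolic ribosomal protein genes, a list added after the data were seen, 7 rose and 41 fell in M1 (-0.18) and 68 rose and 0 fell in M2 (0.41). No gene of these lists was called between p284R and p254I averaged over polarizations.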

How the data were processed

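RNA of 45 macrophage cultures was sequenced by the submitters from stranded mRNA libraries. Per the labels and processing notes the reads were trimmed with Trim Galore, checked with FastQC and aligned to mm10 with HISAT2, and limma was used, while the design text of the series names Cutadapt and STAR instead. The counting tool and its strand setting are not given in the sources used here. The authors deposited raw counts per gene (29307 genes) and CPM values (11900 genes). The deposited CPM came from whole reads: 100% of values were whole reads within a tolerance of 0.01 and equal to the deposited counts. A count test on those reads, chosen after seeing the data, called 9362 genes in M1 vs M0, 9293 in M2 vs M0 and 4 in p284R vs p254I, against 9982, 9860 and 2 from the full count table.

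From the counts, edgeR 4.0.16 in R 4.3.3 (TMM, filterByExpr by the 9 groups, 12905 genes kept, robust quasi-likelihood fit of all 45 libraries with 1 mean per group) tested 19 contrasts, with Benjamini-Hochberg adjustment over all genes and a threshold of 0.05. Standard errors are those of the log2 fold changes. Normalization factors ran from 0.939 to 1.10. Limma 3.58.1 (voom), DESeq2 1.42.0, other scalings, filters, blocks and leaving out each mouse were alternatives, 27 in all. The fitting was tested on simulated data. Tables were handled in Python 3.11.15 with pandas 2.3.3, numpy 2.4.6 and scipy 1.17.1. Precision is set by 5 mice per genotype, and depth by 17239009 to 43740283 reads per library. Transcript lengths, gene positions and the unique 50-base windows came from GENCODE, which matched 29081 gene IDs and left 226 unmatched, and promoters from RefSeq. Where overlaps of libraries are given, the lowest value of a group was set against the highest of the other.

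The rule for members uses names only, but it and the gene lists were chosen with earlier results of these data known. Named members were, per complex, up to 2 called members with the largest positive and 2 with the largest negative log2 fold change in M1 vs M0 and M2 vs M0, all 4 Sdh genes, 7 core complex I subunits, isoform pairs of complexes I, IV and V, the 2 members with the smallest p in p284R and in p254V against p254I, and AA467197. From each list up to 3 called genes with the largest absolute change per comparison could be named. Single values of a few named genes are not reported here.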

Additional observations from a re-analysis of the deposited data

Results flagged for a closer look

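In groups of 5 libraries, the highest or lowest library of a named member or of a complex was compared with its nearest neighbour, and 24 of 378 groups (6.35%) had a gap past the 95% limit of Dixon's test for 5 values (0.71 of the range). Chance alone gives about 1 in 20. All values are CPM.

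In M0, mouse 3 of p254V was lowest for the summed complex V at 1903 and for Atp5g3 at 133, and mouse 2 of p254V was lowest for Cox7a1 at 1.07 and highest for Ndufs8 at 47.4. Mouse 3 of p284R was lowest for Cox7a2 at 69.7 and for Cox7b at 55.2, mouse 4 of p284R was highest for Cox6b1 at 168, and mouse 1 of p254I was highest for Sdha at 307.

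In M1, mouse 1 of p254I was highest for Cox4i1 at 425, Cox8a at 225, Ndufa4 at 109.5 and Sdhd at 324. Mouse 1 of p254V was highest for Cox7a2l at 126, Ndufa4 at 115 and Sdhd at 330.1, and mouse 2 of p254V was lowest for Cox6a1 at 150.4 and Uqcrq at 61.4. Mouse 1 of p284R was lowest for Ndufs1 at 101 and Ndufv2 at 75.4, mouse 2 of p254I was lowest for Sdhb at 226, and mouse 5 of p254I was highest for Atp5g1 at 2.05.

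In M2, mouse 1 of p254V was highest for Cox6a1 at 159.6 and Ndufa13 at 131, and mouse 2 of p284R was highest for Ndufs7 at 68.5.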

How the results depend on the processing

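Over all alternatives, 465 of 465 counts of called members stayed within 1.5 times of the reported count. That limit is wide for the counts against M0, which were near all 76 members. In the 16 genotype comparisons it set 0 against 0. Calls of single members did change, 10 of them in M1 vs M2 without TMM and up to 4 there when 1 mouse was left out. Of 1954 recomputed log2 fold changes of named members, 1941 kept direction and side of the threshold, 11 lost the call and 2 changed sign. Among the lost calls is that of Atp5s in M1 vs M0 with no filter on low counts. The recomputed fold changes did not include M1 vs M2. There, named members such as Ndufa12 and Ndufv2 also lost their call when single mice were left out. Leaving out each mouse gave 72 members higher and 1 to 2 lower in M1 vs M0, and 74 higher and 2 lower in M2 vs M0. No genotype comparison gained a member under any alternative.

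Without TMM the median of the members in M1 vs M0 was 0.51 log2, against 0.61, and the cause was not tested. With library totals in place of TMM the median level of complex I in M0 became 1603 CPM, of complex II in M0 727 CPM, of complex IV in M0 1064 CPM and of complex V in M1 3499 CPM. With Ndufa4 counted in complex IV and without Cox7a2l and Atp5s, complex I stood at 1462 CPM in M0, 2122 CPM in M1 and 2050 CPM in M2, since it then holds 1 gene fewer. The small difference of Ndufv3 between p284R and p254I, never called, turned to -0.00056 log2 without TMM and to -0.017 log2 without p254I replicate 4, and ran from -0.017 to 0.029 log2 when each mouse was left out.

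With the replicate number as a block, 74 members were called in M1 vs M0 (72 higher), 76 in M2 vs M0 (74 higher) and 62 in M1 vs M2 (44 higher and 18 lower), and with the mouse as a block 74, 76 and 60. Each block changed the call of 2 members in M1 vs M2. Deviations from the group mean over 8000 genes correlated above 0.1 between libraries of the same number across genotypes in 15 of 15 pairs in M0 and M1 and in 13 of 15 in M2, and between cultures read as 1 mouse in 15 of 15 for M0 with M1 and M0 with M2 and in 10 of 15 for M1 with M2. The numbers therefore did not meet the condition for pairing in all pairs. Across genotypes, libraries sharing a number had a median correlation of 0.71 (M0), 0.51 (M1) or 0.42 (M2). Cultures read as 1 mouse had medians of 0.29 (M0 with M1), 0.48 (M0 with M2) and 0.16 (M1 with M2). The replicate number thus went with deviations shared across genotypes in most pairs, and the main fit held no term for it. What the number stands for was not tested.

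Cox7a1, Cox6a2, Atp5g1 and Atp5g2 were counted at under 20 reads in at least 1 library, which limits what their small differences can show. RNA levels do not give protein or respiration, and the subunits from mitochondrial DNA were not analysed here.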
